A study of Mus musculus with 16 samples.

Results

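The comparison described here is that of the libraries labelled outer hair cell (OHC) at 26 months with the libraries labelled OHC at 9 months, 8 of the 16 libraries of the series, taken by their labels alone. OHCs are the motile sensory cells of the organ of Corti that amplify sound, and the series set them beside inner hair cells (IHCs), the sensory cells that drive the auditory nerve, to ask what aging changes in each. By the labels and methods both OHC groups came from CBA/J mice of both sexes (CBA in the labels) with no genetic change or treatment, aged 9 or 26 months. For each library about 1000 cells, picked singly by pipette aspiration on their shape, were pooled from 6 to 18 mice. A library thus stands for a pool and not an animal, and some libraries of a label may share a pool, as described below. Each gene was measured in RPKM (reads normalized to the length of the gene and the depth of the library), and 14843 of 49585 genes had a mean of at least 0.1 RPKM in at least 1 of the groups and were tested.

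The data went against the cell type label, so each group is called by its label only. Whether the ages attached to the libraries hold was not tested, and "younger" and "older" below refer to the labels. *Slc26a5* (chromosome 5 from 21810655 to 21865604 of GRCm38), which encodes prestin, the motor protein that defines OHCs, was at 0.203, 0.139, 0.215 and 0.131 RPKM in libraries 1 to 4 labelled 9m OHC and at 1.81, 1.78, 1.74 and 2.06 RPKM in those labelled 26m OHC. In the libraries labelled 26m IHC its mean was 816 ± 4.24 RPKM (SD, n = 2). *Ocm* (chromosome 5 from 144019804 to 144026670), which encodes oncomodulin, a calcium buffer of OHCs, measured 98.9, 97.5, 95.2 and 96.1 RPKM in the libraries labelled 9m OHC and at 1153, 1142, 1155 and 1156 RPKM in those labelled 26m OHC, against a mean of 12920 RPKM in those labelled 26m IHC. The summed level of 16 OHC genes was 145.6 to 150.8 RPKM at the 9m OHC label, 1269 to 1283 RPKM at the 26m OHC label, 122.7 to 126.2 RPKM at the 9m IHC label and 16720 to 16930 RPKM at the 26m IHC label. Most of the sum was *Ocm* at both OHC labels and at the 26m IHC label. By this summed level neither group labelled OHC held the highest level of OHC genes. The transcription factor gene *Pou4f3*, needed for hair cells to survive, was present in both groups, at means of 118 and 67.5 RPKM.

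**Figure D1:**
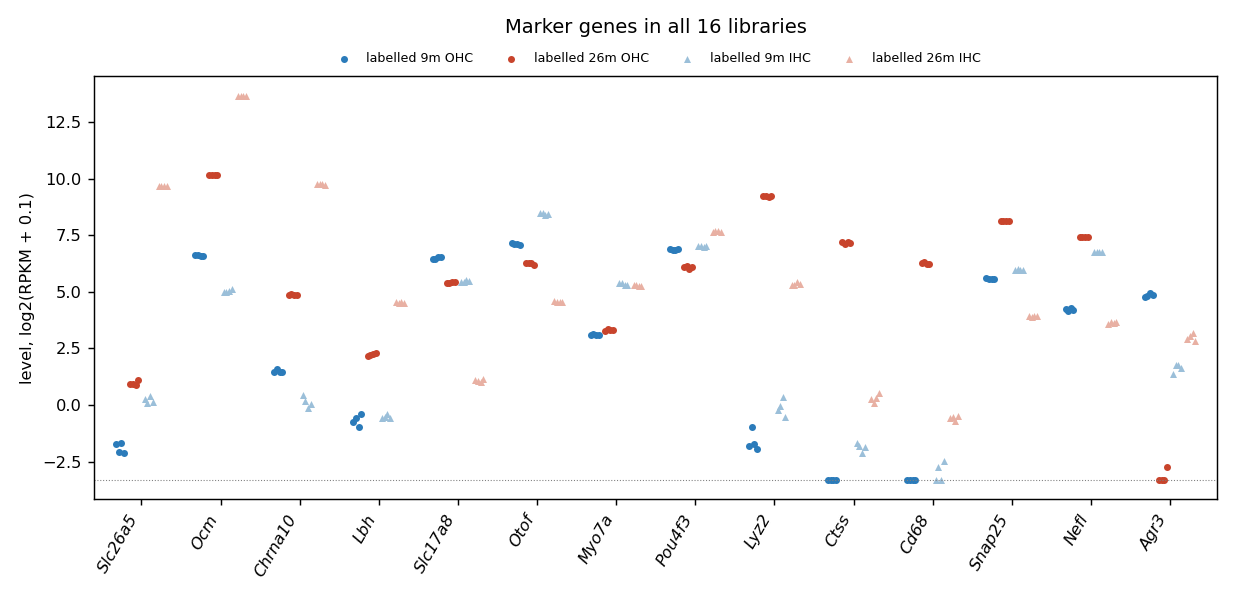
Level of 14 marker genes in each of the 16 libraries, as log2(RPKM + 0.1), with circles for libraries labelled OHC and triangles for libraries labelled IHC, blue at 9 months and red at 26 months, and the dotted line at 0 RPKM. *Slc26a5*, *Ocm* and *Chrna10* are highest in the libraries labelled 26m IHC, *Ctss* and *Cd68* lie on the line in the libraries labelled 9m OHC, and *Agr3* lies on it in 3 of 4 libraries labelled 26m OHC.

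Several cell types meet in the organ of Corti. Hair cells sit among supporting cells, afferent endings of spiral ganglion neurons reach their base, and resident macrophages survey the epithelium and take up debris when hair cells degenerate. Macrophages are known by lysosomal proteases, Fc receptor adaptors and complement, and neurons by neurofilaments and the proteins of vesicle release. The lists below hold genes of such kinds, but were chosen with earlier results of these data known. They include the given markers, such as *Lyz2*, *Snap25* and *Agr3*, and some of the largest rises and falls. Their counts are therefore partly set by the choice of members. Each list is described by counts of members called and by its median, without a test of the list. Of all genes tested, 35.6% were called higher and 14.0% lower at the 26m OHC label.

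Libraries 1 and 2 of each label, and libraries 3 and 4, differed by about the counting noise, so the mean of each pair served as 1 sample (n = 2 per label). The libraries labelled OHC held 19666190 to 21226800 mapped reads, with little difference between the labels. Of the mapped reads, mitochondrially encoded genes took 9.27% to 9.56% at the 9m OHC label and 7.48% to 7.73% at the 26m OHC label, and at most 2.05% in libraries labelled IHC. RNA of the Y-linked genes *Ddx3y*, *Uty*, *Kdm5d* and *Eif2s3y* was at or under 0.0350 RPKM in each of the 8 libraries labelled OHC, while *Xist*, the RNA of the inactive X chromosome, was at means of 6.60 and 6.03 RPKM. Since the spread within a label is that between 2 averaged pairs of unstated origin, adjusted p-values measure that spread only.

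Of the 14843 genes tested, 5288 were higher and 2079 lower in the libraries labelled 26m OHC, 49.6% in all (35.6% higher and 14.0% lower, with thresholds of 0.1 for the adjusted p and 1 for the size of the log2 fold change). The libraries did not overlap for 57.5% of genes in the upward and 31.1% in the downward direction, so that a lack of overlap was common. The median log2 fold change over all genes tested was 0.447. The share of calls that were higher was 71.8%, and became 61.1% with median ratio scaling (median 0.118) and 49.6% with quantile normalization (median −0.03). More genes were present at the older label, with means above 0.1 RPKM for 13821 genes against 12559, and the 100 most abundant genes took 47.1% to 47.7% of the summed RPKM there against 55.8% to 56.3%. As these are bulk samples, fewer cells of a type and less RNA per cell cannot be told apart.

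A set of genes was read at one label and not at the other. In the libraries labelled 9m OHC, 661 genes were at 0 in all 4 libraries but at a mean of at least 1 RPKM in those labelled 26m OHC (539 of them protein-coding, 5.86% of the 11288 genes at that level). The reverse held for 239 genes (134 protein-coding, 2.45% of 9761). Within a label this hardly occurred. At the 9m OHC label 3 genes, and at the 26m OHC label 1 gene, were at 0 in averaged replicate 1 and at 1 RPKM or more in averaged replicate 2. The other way round there were 0 genes. Libraries of different pairs were closely alike, with a coefficient of variation beyond counting noise of 1.69% to 2.04% for genes of at least 1000 reads. Whether these pairs were separate pools of cells is not known, so the count cannot show how far such pools differ. For genes at 0 the fitted fold change depends on the 0.1 RPKM added before the log, so the text gives a lower bound, set by a floor of 3 reads over the 4 libraries at 0, where reads could be recovered.

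Genes of macrophages made up much of the upper end of the rises. *Lyz2* (chromosome 10 from 117277334 to 117282274), which encodes the lysozyme of myeloid cells, had the largest log2 fold change of all genes that met the naming rule. It was at 0.189, 0.413, 0.201 and 0.158 RPKM in the libraries labelled 9m OHC and at 612.5, 600.3, 594.4 and 605.2 RPKM in those labelled 26m OHC. All 4 libraries at the older label were thus high, with and the log2 fold change was 10.81 ± 0.18 (SE; limma adjusted p = 2.69e-06). *Ctss* (chromosome 3 from 95526786 to 95556403), the antigen-processing protease cathepsin S, was at 0 in the 4 libraries labelled 9m OHC and at 145.8, 140.8, 147.4 and 145.1 RPKM in the others, at least 5340-fold higher. *Tyrobp*, the signalling adaptor DAP12, was at 0 and then at 121.6, 125.1, 116.5 and 118.9 RPKM. For *Cd68*, a lysosomal glycoprotein of phagocytes, the values at the older label were 78.4, 78.9, 74.5 and 76.2 RPKM against 0 in each library at the younger one.

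Of the 35 macrophage genes listed, 34 were in the table and 32 passed the filter on low values. Among these 32, 30 were higher and 1 was lower, with a median log2 fold change of 5.34 (6.55 with genes at 0 set to their bound), beside 35.6% higher and a median of 0.447 over all genes tested. The filter favours genes that are high at 1 label, and 25 of the 32 were at 0 in every library labelled 9m OHC and present in those labelled 26m OHC. The summed level of the list was 7.59 to 8.44 RPKM at the younger and 1136 to 1171 RPKM at the older label. Most of the former came from *Lcp1*, an actin bundling protein that hair cells also use, at a mean of 6.75 RPKM. The libraries labelled 9m and 26m IHC lay between, at 38.8 to 40.2 and 129.2 to 132.1 RPKM. Further members included *Fcer1g*, the Fc receptor gamma chain (0 against a mean of 51.4 RPKM), *Cd52* (0 against 24.8 RPKM), *C1qb* (0 against 22.4 RPKM), *Fcgr3* (0 against 19.1 RPKM) and *Trem2*, a receptor for lipids on phagocytes (0.00253 against 9.34 RPKM). Some defining genes were low throughout. *Csf1r*, the receptor that macrophages need to survive, was at 0 and 1.14 RPKM, while the microglial chemokine receptor gene *Cx3cr1* (0.00828 and 0.0215 RPKM) and *Spi1*, which encodes the myeloid factor PU.1 (0 and 0.054 RPKM), stayed under the filter. *Fcgr1*, a high-affinity Fc receptor, went the other way, from a mean of 0.964 RPKM to 0, a call lost with 1 RPKM added before the log (log2 fold change −0.97).

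Promoters of these genes are shown because they moved together. The sequences are RefSeq's (GRCm38.p6), the 250 bases before the annotated start, 5′ to 3′ on the gene's strand, with GAGGAA, the core bound by PU.1, or its reverse complement TTCCTC in capitals. *Ctss* lies at chr3:95526536-95526785 on the plus strand and *Cd68* at chr11:69666171-69666420 on the minus strand.
Ctss: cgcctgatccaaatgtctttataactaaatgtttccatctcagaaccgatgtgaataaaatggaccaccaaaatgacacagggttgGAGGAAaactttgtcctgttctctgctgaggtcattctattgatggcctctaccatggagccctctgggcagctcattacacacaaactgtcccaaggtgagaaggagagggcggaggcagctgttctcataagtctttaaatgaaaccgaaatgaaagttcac
Cd68: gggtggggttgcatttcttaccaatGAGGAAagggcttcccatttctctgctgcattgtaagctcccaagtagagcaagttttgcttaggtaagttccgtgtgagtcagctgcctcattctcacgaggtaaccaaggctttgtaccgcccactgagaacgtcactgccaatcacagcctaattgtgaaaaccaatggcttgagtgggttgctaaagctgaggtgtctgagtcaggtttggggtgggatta
Each window held 1 match. The corresponding windows of *Lyz2* and *Fcer1g* held none. Over all 32851 windows of this length 23.3% held the motif on either strand, and among macrophage genes 15 of 33 windows did (26 genes had a window, 14 of them with a match). The match is a description of letters and not of binding.

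Genes that phagocytes use for matrix and lipid were largely higher too, 20 of 24 tested, with 0 lower and a median of 2.66. All genes tested stood at 35.6% higher and 14.0% lower, with a median of 0.447. *Mmp12*, macrophage elastase, was at 0.00661, 0.00657, 0.00703 and 0.0139 RPKM in the libraries labelled 9m OHC and at 86.9, 90.4, 90.2 and 89.0 RPKM in those labelled 26m OHC. *Ctsk*, the collagen-cleaving cathepsin of osteoclasts, was at 0 and then at 23.7, 23.5, 23.9 and 22.3 RPKM, at least 958-fold higher. *Cd36*, a scavenger receptor for oxidized lipid, was likewise at 0 and then at 22.2, 21.7, 23.5 and 24.2 RPKM, and *Lpl*, lipoprotein lipase, rose from a mean of 0.0338 to 13.3 RPKM. *Spp1*, the secreted glycoprotein osteopontin, was abundant at both labels, at 134.7 to 139.7 and at 958.2 to 990 RPKM, and was also at a mean of 128 RPKM in libraries labelled 9m IHC. The lysosomal genes *Ctsd*, *Ctsl* and *Ctsz* rose from means of 52.2, 18.6 and 19.2 RPKM to 216, 157 and 109 RPKM. *Cd9*, a tetraspanin found on many cell types, was at 196 and 194 RPKM.

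Complement, chemokine and interferon genes followed. Over all genes tested 35.6% were higher and 14.0% lower. Of 12 complement genes tested 9 were higher and 1 lower (median 2.07). The list shares *C1qa*, *C1qb* and *C1qc* with the macrophage list. Among the higher genes were *Serping1*, the C1 inhibitor, at 2.84 to 3.13 against 15 to 16.5 RPKM, and *Clu*, the chaperone clusterin, at 141.7 to 148.4 against 412.1 to 427.6 RPKM. *Cfp*, properdin, was the lower member, at means of 0.297 and 0.0769 RPKM, and its call was lost without library 2 labelled 26m OHC (log2 fold change −0.96 against −1.17). Of 33 chemokine and cytokine genes 16 passed the filter on low values, which favours genes that are high at 1 label. Among these 16, 14 were higher and 0 lower (median 3.68, and 1.41 with 1 RPKM added before the log). In the list 12 genes were at 0 at both labels, and 5 tested genes were at 0 at the 9m OHC label only. *Ccl6*, a myeloid chemokine, went from 0 in 4 libraries to 20.8, 19.9, 22.5 and 21.7 RPKM, and *Il1rn*, the antagonist of the interleukin-1 receptor, from a mean of 0.549 to 12.5 RPKM. The genes of acute inflammation *Il6*, *Tnf*, *Ccl2* and *Cxcl1* were at 0 in all 8 libraries, and *Il1b* was at 0 and 2.32 RPKM. *Cxcr4*, a chemokine receptor, was at 34.3 and 18.7 RPKM, a log2 fold change of −0.87 ± 0.05 that did not reach the fold threshold, and reached it with median ratio scaling (−1.21) and quantile normalization (−1.02).

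Of 33 interferon response genes tested, 23 were higher and 0 lower (median 1.63), beside 35.6% and 14.0% of all genes tested. *Ifitm3*, which blocks viral entry, was at 24.1, 27.1, 24.3 and 23.2 RPKM in the libraries labelled 9m OHC and at 185.4, 188, 180 and 182.3 RPKM in those labelled 26m OHC. *Ifit3* was at 0 and then at 15.8 to 17.3 RPKM, though 40.3% of its 75-base windows occur in transcripts of other genes, so its reads are uncertain. *B2m*, the light chain of MHC class I, was at 93.1 to 98.5 and 178.4 to 185 RPKM, a log2 fold change of 0.91 that missed the fold threshold and passed it when mitochondrially encoded genes were left out of the scaling or after quantile normalization.

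MHC class II did not move with these lists. Of 8 genes tested 2 were higher and 1 lower, beside 35.6% and 14.0% of all genes tested. The list's median was 0.06, and below 0 under median ratio scaling (−0.27) and quantile normalization (−0.18). Among leave-one-out settings the median was 0.13 without averaged replicate 1 labelled 9m OHC and −0.003 without averaged replicate 2 of that label. The count of higher genes was 1 without library 3 or averaged replicate 1 labelled 9m OHC and without averaged replicate 1 labelled 26m OHC. *Cd74*, the invariant chain, was the most abundant member, at 79.0, 76.2, 74.9 and 72.9 RPKM in the libraries labelled 9m OHC and at 71.6, 70.4, 70.2 and 71.1 RPKM in those labelled 26m OHC, and the libraries labelled 9m and 26m IHC held 1.5 and 1.59 RPKM. *H2-Aa*, an antigen-presenting alpha chain, fell from a mean of 8.71 to 2.46 RPKM (log2 fold change −1.79 ± 0.05, adjusted p = 7.94e-06), and *H2-Eb1* was at 0 and then at 2.02 to 2.41 RPKM. So RNA of class II genes was read at the younger label, where 25 of 32 macrophage genes tested were at 0.

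Genes of granulocytes and lymphocytes were scarce. Of 19 granulocyte genes 3 passed the filter, and their summed level was 3.08 to 4.41 RPKM at the younger and 0.618 to 1.35 RPKM at the older label, against 460.7 to 476.2 RPKM in libraries labelled 26m IHC. Lymphocyte genes summed to at most 2.09 RPKM at either label, and the T cell gene *Trac* was at a mean of 1.06 RPKM and at 0. The part of macrophages in the higher immune genes was not tested, beyond the sums of their markers given above.

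**Figure D2:**
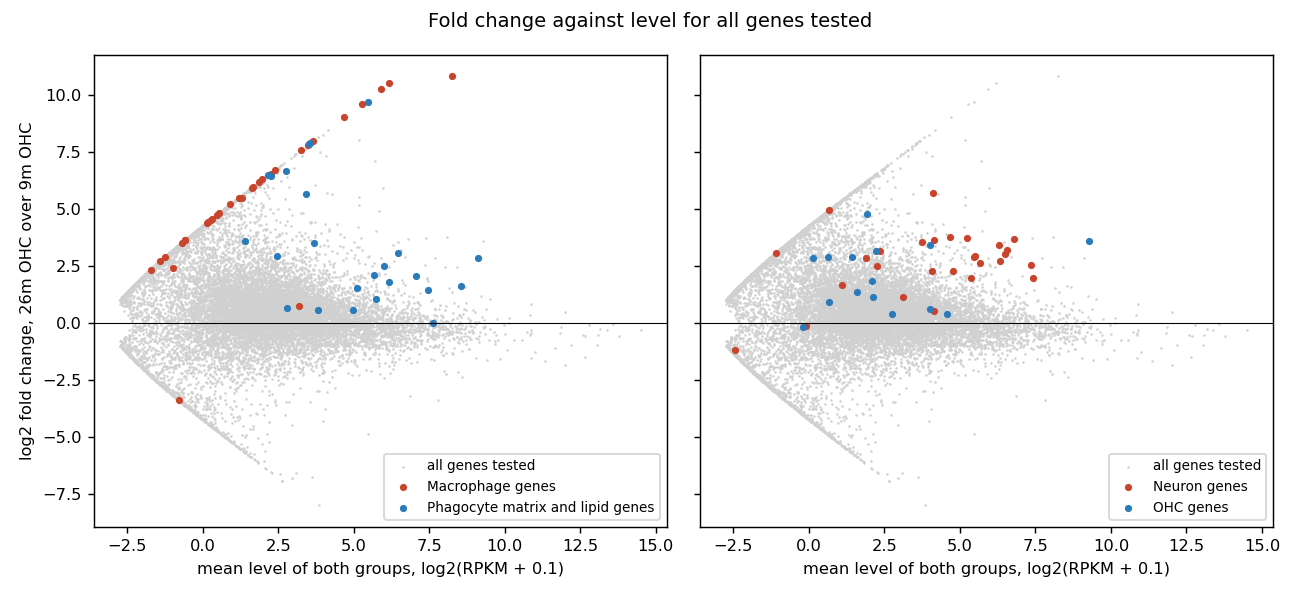
Log2 fold change of the libraries labelled 26m OHC over those labelled 9m OHC against the mean level of both groups for the 14843 genes tested (grey), with macrophage and phagocyte genes in the left panel and neuron and OHC genes in the right panel. Genes at 0 in 1 group fall on the slanted edges, which the 0.1 RPKM added before the log sets, and 25 macrophage genes lie on the upper edge while most neuron genes lie inside, being present at both labels.

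Neuronal genes were the other large block of rises, but unlike macrophage genes most were present at both labels. Of 28 neuron genes tested 25 were higher and 1 lower, with a median of 2.86, beside 35.6%, 14.0% and 0.447 over all genes tested. The lower count was 0 without either averaged replicate labelled 26m OHC and without averaged replicate 2 labelled 9m OHC. *Snap25* (chromosome 2 from 136713453 to 136782428), a SNARE protein of vesicle release, was at 48.6, 48.0, 47.8 and 47.2 RPKM in the libraries labelled 9m OHC and at 281.8, 281.5, 277.5 and 279.1 RPKM in those labelled 26m OHC (log2 fold change 2.54 ± 0.02, adjusted p = 2.04e-06). *Nefl*, a neurofilament subunit, was at 17.9 to 19.2 and 169.9 to 171.7 RPKM, but shares 31.6% of its windows with other transcripts. *Nefh*, the heavy subunit, shares none and was at 13.2 to 13.9 and 140.6 to 144.3 RPKM. *Tubb3*, the neuronal tubulin, was at means of 21.2 and 139 RPKM, and *Ina*, alpha-internexin, at 0.549 and 33.8 RPKM. Not all neuron genes followed, since *Gap43*, a growth cone protein, was at 0 in the 8 libraries and *Celf4* was at 0.876 and 0.786 RPKM.

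The summed level of the 30 neuron genes was 311.3 to 315.5 RPKM at the 9m OHC label, 2007 to 2053 RPKM at the 26m OHC label, 461.5 to 470.5 RPKM at the 9m IHC label and 101.4 to 102.3 RPKM at the 26m IHC label. Spiral ganglion genes rose in 16 of 21 tested, with 0 lower and a median of 2.43, beside 35.6%, 14.0% and 0.447 over all genes tested. *Lypd1*, which binds nicotinic receptors, was at 0, 0, 0.00722 and 0.00713 RPKM in libraries 1 to 4 labelled 9m OHC and at 34.7, 36.2, 35.2 and 36.3 RPKM in those labelled 26m OHC. *Pou4f1*, a sensory neuron factor that hair cells hardly use, rose from a mean of 0.56 to 18.2 RPKM. *Gata3* and *Calb2*, which hair cells express as well, were at 272 and 223 RPKM and at 1609 and 2014 RPKM, and neither was called.

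Presynaptic genes were higher in 19 of 28 tested and lower in 2, with a median of 2.03. Their list shares *Snap25*, *Cplx1*, *Syt1* and *Dnm1* with the neuron list, and *Otof* and *Slc17a8* with the IHC list. *Cplx1*, a clamp of the SNARE complex, was at 16.1, 16.5, 16.6 and 14.9 RPKM against 208.6, 205.5, 204.8 and 204.3 RPKM. *Slc17a7*, the vesicular glutamate transporter of spiral ganglion neurons, was at 1.36 and 10.9 RPKM. The 2 lower members were *Rims2*, an organizer of the active zone (6.94 and 1.92 RPKM), and *Slc17a8*, the glutamate transporter of IHC vesicles (90.5 and 42.2 RPKM), whose call was lost when mitochondrially encoded genes were left out of the scaling (−0.95). Genes of Schwann cells and myelin were split, 7 higher and 4 lower of 17 (median 0.40). Over all genes tested 35.6% were higher and 14.0% lower, with a median of 0.447. *Mbp*, myelin basic protein, was among the lower ones, at 0.671 and 0.0995 RPKM (a call lost with 1 RPKM added before the log), while *S100b* was at 77.3 and 276 RPKM and *Sox10* at 28.7 and 29.5 RPKM. The part of neuronal RNA in these rises was not tested.

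Other cell types of the cochlea gave mixed counts, beside 35.6% higher and 14.0% lower of all genes tested. Among genes of fibrocytes and connective tissue 11 of 19 were higher and 2 lower (median 1.66). *Otor*, the secreted protein otoraplin, was at 0.101, 0.301, 0.214 and 0.106 RPKM against 72.2, 70.9, 72.1 and 72.0 RPKM, and *Coch*, cochlin of the spiral ligament, at means of 23.5 and 309 RPKM. The collagen genes *Col1a1* and *Col2a1* were the 2 lower members, at 1.10 and 0.00563 RPKM and at 1.45 and 0.008 RPKM. *Emcn*, a sialomucin of capillaries, was at 0 and then at 25.6, 25, 25.4 and 25.2 RPKM, at least 3720-fold higher, yet the endothelial genes *Pecam1* and *Cdh5* were at 0 in all 4 libraries labelled 26m OHC, and vessel genes were higher in 5 and lower in 3 of 10. Stria vascularis genes were higher in 6 and lower in 2 of 12 (median 1.02, and −0.10 with quantile normalization), led in level by *Ptgds*, prostaglandin D2 synthase, at 371 and 827 RPKM, whose call was lost with median ratio scaling (log2 fold change 0.82 against 1.16).

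Supporting cell genes did not stand apart from other genes, with 8 higher and 5 lower of 26, beside 35.6% and 14.0% of all genes tested (median 0.35, and −0.07 with quantile normalization). *S100a1*, a calcium-binding protein, was at 11450, 11400, 11200 and 11220 RPKM in the libraries labelled 9m OHC and at 5822, 5792, 5713 and 5677 RPKM in those labelled 26m OHC, a log2 fold change of −0.98 ± 0.02 that missed the fold threshold and passed it with median ratio scaling. *Gjb2*, the gap junction protein connexin 26, rose from 85.0 to 209 RPKM (a call lost with median ratio scaling, at 0.96), and *Ednrb*, an endothelin receptor, fell from 21.6 to 5.47 RPKM. Hemoglobin RNA was low at both labels, with the red cell genes summing to 12 to 14.3 and to 17.4 to 19.9 RPKM, against 5922 to 6151 RPKM in libraries labelled 26m IHC.

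**Figure D3:**
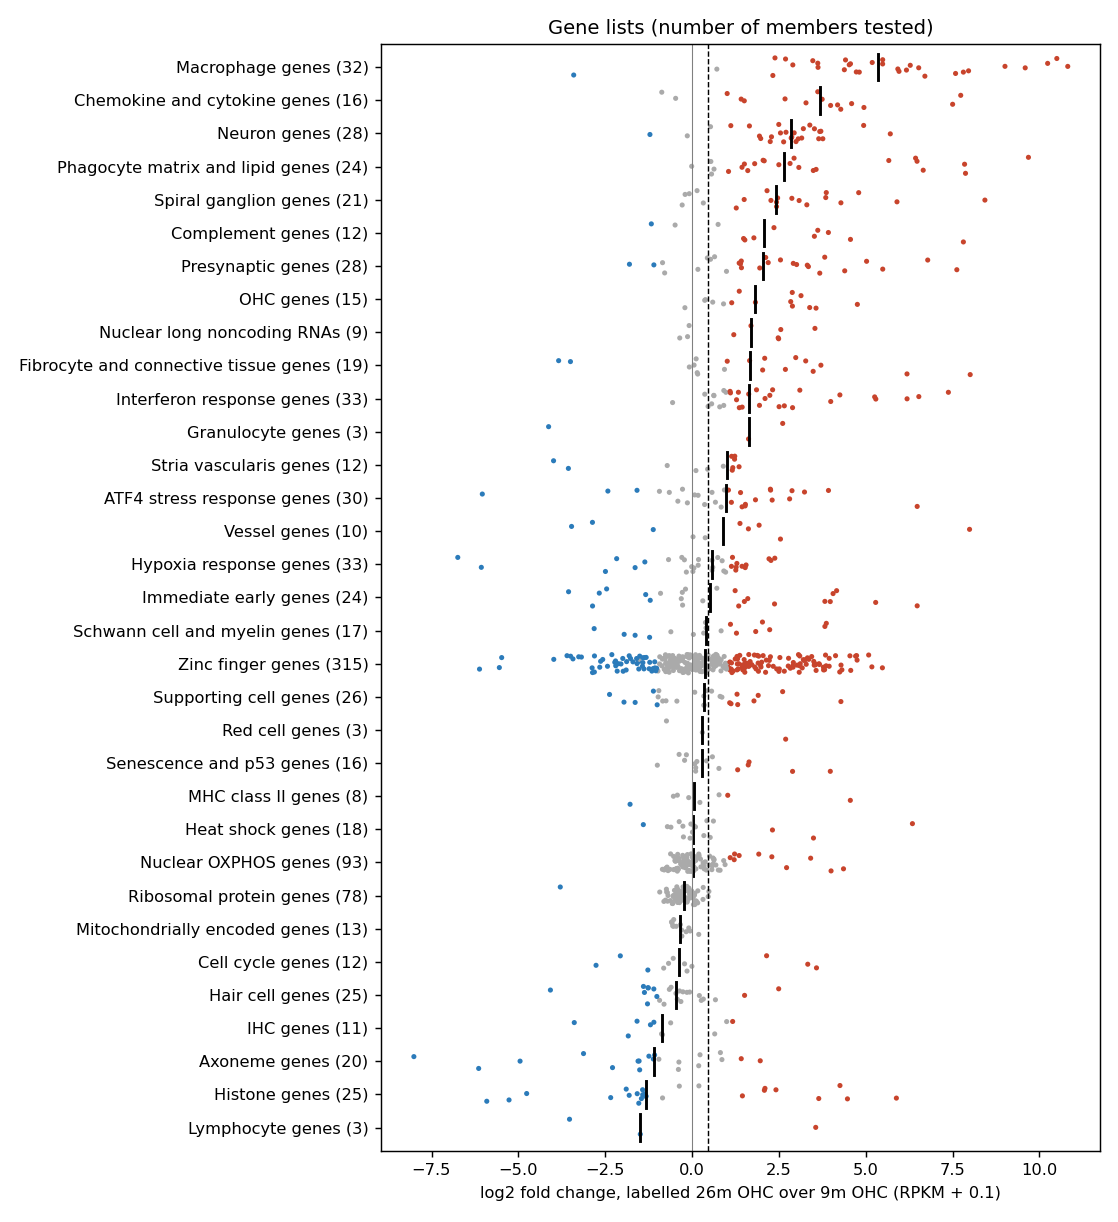
Log2 fold change of each tested member of the 34 lists, leaving out the sex-linked genes, of which 1 was tested. Points are red where higher, blue where lower and grey where not called. The list's median is a black bar and the median of all genes tested, 0.447, a dashed line. Macrophage, chemokine and neuron genes have medians of 5.34, 3.68 and 2.86, which were 2.31, 1.41 and 2.45 with 1 RPKM added and 4.75, 2.63 and 2.61 with quantile normalization, and the axoneme and histone lists lie below 0 (−1.10 and −1.34).

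The hair cell genes themselves were divided by type. Of 15 OHC genes tested 10 were higher and 0 lower (median 1.82), beside 35.6% and 14.0% of all genes tested. *Chrna10*, a subunit of the receptor at the efferent synapse, was at 2.64, 2.91, 2.69 and 2.61 RPKM in the libraries labelled 9m OHC and at 29.1, 30.1, 29.2 and 28.9 RPKM in those labelled 26m OHC, with 35.7% of its windows shared with other transcripts. *Chrna9*, the partner subunit (5.76 and 7.44 RPKM), and *Ikzf2*, an OHC fate factor (1.0 and 1.97 RPKM), were not called. Even the higher level of *Chrna10* was small beside that in libraries labelled 26m IHC, a mean of 869 RPKM.

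Of 11 IHC genes tested 5 were lower and 1 higher (median −0.88), beside 14.0% and 35.6% of all genes tested. With median ratio scaling 7 were lower, and the count of higher genes was 2 without library 1 or averaged replicate 1 labelled 26m OHC and without library 3 or averaged replicate 2 labelled 9m OHC. *Dnajc5b*, a cysteine-string protein, was at 404.8, 407.5, 410.9 and 405 RPKM in the libraries labelled 9m OHC and at 39.8, 37.0, 38.5 and 39.5 RPKM in those labelled 26m OHC (log2 fold change −3.39 ± 0.02, adjusted p = 2.04e-06). *Cabp2*, a regulator of synaptic calcium channels, fell from 1391 to 464 RPKM, and *Otof*, otoferlin, was at 138 and 76.8 RPKM without a call (log2 fold change −0.85), and was called with median ratio scaling (−1.19). *Ntf3*, a neurotrophin, was the higher member, at 0.767 and 1.85 RPKM, and its call was lost with median ratio scaling, quantile normalization and 1 RPKM added before the log. At the 9m OHC label the summed IHC genes were at 2144 to 2194 RPKM, most of it from *Cabp2* and *Dnajc5b*. That sum was near the 2434 to 2519 RPKM of libraries labelled 9m IHC. The 26m OHC label had 687.9 to 718.4 RPKM, above the 590.2 to 617 RPKM of libraries labelled 26m IHC.

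Genes shared by both hair cell types were lower in 8 and higher in 2 of 25 (median −0.46), beside 14.0% and 35.6% of all genes tested. The lower ones included parts of the mechanotransduction complex, with *Lhfpl5* at 343.7, 338.4, 328.8 and 325.9 RPKM against 138.1, 143.5, 139.5 and 133.1 RPKM, and *Cib2* at means of 248 and 123 RPKM. The call of *Cib2*, at a log2 fold change of −1.01, was lost with quantile normalization (−0.88), without mitochondrially encoded genes in the scaling (−0.87) and without averaged replicate 1 labelled 9m OHC (−0.996). *Smpx*, a cytoskeletal protein linked to deafness, fell from 361 to 137 RPKM. *Tmc1*, a pore subunit of the mechanotransduction channel, was at 32.8 and 26.2 RPKM and *Myo7a*, the myosin of stereocilia, at 8.52 and 9.87 RPKM, and neither was called. *Barhl1*, a hair cell homeobox gene, was at 1.58, 1.64, 1.56 and 1.57 RPKM and then at 0 in all 4 libraries. The summed level of the list differed less than its members, at 3521 to 3588 and 3102 to 3154 RPKM, with the most abundant member, *Calb2*, at 1609 and 2014 RPKM. Both sums were below those of the libraries labelled 9m and 26m IHC, at 5964 to 5992 and 5329 to 5396 RPKM.

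By absolute difference, the largest rises were in genes of high level. *Fth1*, the ferritin heavy chain, was at 3448, 3467, 3408 and 3426 RPKM in the libraries labelled 9m OHC and at 4808, 4816, 4777 and 4790 RPKM in those labelled 26m OHC, a log2 fold change of 0.48. Next came *Ocm*, described above, and *Actb*, beta-actin, at 1338 to 1392 and 2350 to 2445 RPKM, whose levels at the 9m and 26m IHC labels were 31.5 and 15.3 RPKM. *Spp1* and *Lyz2*, also described above, followed. *Ldhb*, the lactate dehydrogenase B subunit, was at 476 and 991 RPKM (a call lost with median ratio scaling, at 0.72), *Ifi27l2a*, an interferon-inducible gene, at 105 and 574 RPKM, and *Vmo1*, a secreted protein, at 36.5 and 502 RPKM. Among nuclear genes the largest differences downward were those of *Calm2*, calmodulin (9439 and 3351 RPKM), *S100a1*, *Acbd7*, an acyl-CoA binding protein (6421 and 1798 RPKM), *Skp1a*, a subunit of SCF ubiquitin ligases (6206 and 3192 RPKM, not called), and *Pcp4*, a calmodulin-binding peptide (3966 and 1227 RPKM, with 30.4% of windows shared). The calls of *Calm2* and *Pcp4* were lost with quantile normalization (−0.69 and −0.94). The mitochondrially encoded *mt-Co3*, *mt-Atp6* and *mt-Cytb* differed by −5699, −4847 and −3149 RPKM and were not called.

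**Figure D4:**
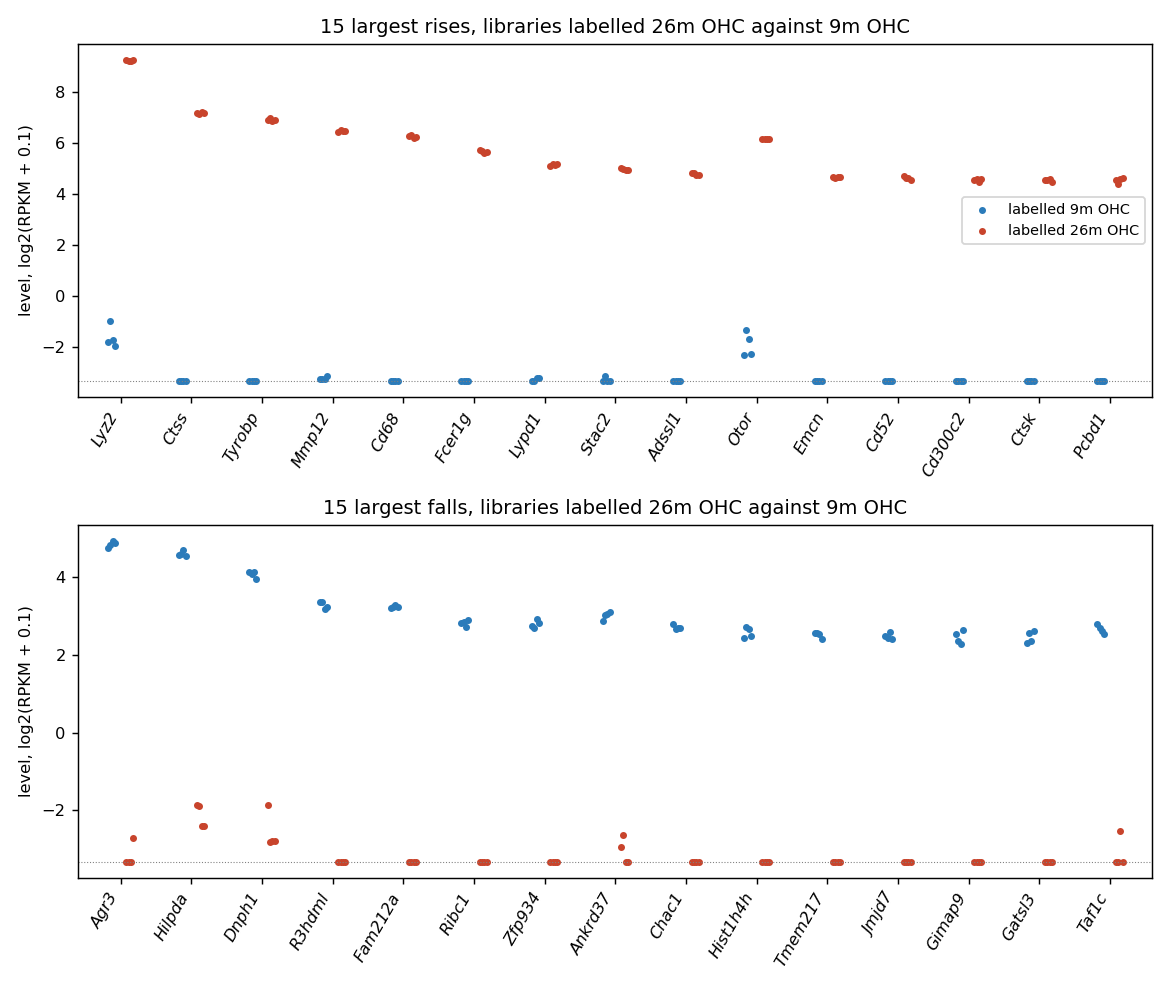
Level in each library, as log2(RPKM + 0.1), of the 15 protein-coding genes with the largest rise (upper panel) and the 15 with the largest fall (lower panel), with libraries labelled 9m OHC in blue, those labelled 26m OHC in red and the dotted line at 0 RPKM. Nearly every point of the lower group lies on or close to the dotted line, and *Lyz2* and *Agr3* head the panels.

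Among the falls, *Agr3* (chromosome 12 from 35925620 to 35949736), a protein disulfide isomerase of ciliated and secretory cells, was first. It was at 26.9, 28.2, 30.7 and 29.4 RPKM in the libraries labelled 9m OHC and at 0, 0, 0 and 0.0514 RPKM in those labelled 26m OHC, a ratio of 2300 with a 95% counting interval of 412 to 90700. Libraries labelled 9m and 26m IHC held 3.02 and 7.91 RPKM. *Dnph1*, an enzyme that removes damaged nucleotides, was at 17.6, 16.9, 17.6 and 15.5 RPKM against 0.173, 0.0426, 0.0452 and 0.0451 RPKM. *Fam212a*, *R3hdml*, *Ribc1*, *Zfp934*, *Chac1* and *Hist1h4h* were the most abundant protein-coding genes at 0 in all 4 libraries labelled 26m OHC, at means of 5.91 to 9.66 RPKM in those labelled 9m OHC. These levels lie far below those of the genes absent at the younger label. Among the latter *Ctss*, *Tyrobp*, *Cd68*, *Fcer1g*, *Adssl1* and *Emcn* led with means of 25.3 to 145 RPKM. Of the windows of *Hist1h4h* and *Zfp934*, 43.8% and 25.3% occur in other transcripts.

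*Agr3* and *Ribc1* both belonged to a list of genes of motile cilia, whose core is the axoneme. Of 20 axoneme genes tested 11 were lower and 2 higher (median −1.10, beside 14.0% of all genes lower), while 21 of the 41 in the table were under the filter, among them the ciliary master regulator gene *Foxj1*, at 0 and 0.00476 RPKM. *Rsph1*, a radial spoke protein, was at 60.1, 61.5, 59.9 and 59.5 RPKM in the libraries labelled 9m OHC and at 12.5, 12.4, 12.5 and 11.5 RPKM in those labelled 26m OHC (log2 fold change −2.29 ± 0.03, adjusted p = 2.09e-06). *Enkur*, a microtubule inner protein of cilia, was at 2.96 to 3.04 RPKM and then at 0. *Cfap43* was a higher member, at 0.0345 and 0.424 RPKM, and the call was lost with 1 RPKM added before the log and with quantile normalization.

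Genes of the response to low oxygen did not move as a block. Of 33 tested, 11 were higher and 6 lower, shares near the 35.6% and 14.0% of all genes tested (median 0.58, and −0.08 with quantile normalization). The sharpest falls were *Hilpda*, a lipid droplet protein that inhibits lipolysis, at 23.8, 24.4, 25.8 and 23.3 RPKM against 0.174, 0.171, 0.0907 and 0.0905 RPKM, and *Ankrd37*, an ankyrin repeat protein, at 7.22, 8.03, 8.23 and 8.57 RPKM against 0.0311, 0.0612, 0 and 0 RPKM. *Vegfa* and *Egln1*, targets of the same factor, rose from means of 0.251 and 2.17 RPKM to 0.916 and 10.4 RPKM, and the call of *Vegfa* was lost with 1 RPKM added before the log (0.61) and with quantile normalization (0.32). The promoters of the 2 genes with the sharpest falls are shown for comparison, again as the 250 bases before the RefSeq start (GRCm38.p6) on the gene's strand, with the core that HIF binds, ACGTG, or its reverse complement CACGT in capitals. *Hilpda* is at chr6:29272376-29272625 on the plus strand and *Ankrd37* at chr8:45999851-46000100 on the minus strand.
Hilpda: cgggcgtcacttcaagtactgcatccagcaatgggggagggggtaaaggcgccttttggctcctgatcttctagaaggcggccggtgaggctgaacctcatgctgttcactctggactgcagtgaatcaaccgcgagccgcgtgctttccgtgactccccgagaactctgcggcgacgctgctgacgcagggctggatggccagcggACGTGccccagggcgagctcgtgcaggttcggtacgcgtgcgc
Ankrd37: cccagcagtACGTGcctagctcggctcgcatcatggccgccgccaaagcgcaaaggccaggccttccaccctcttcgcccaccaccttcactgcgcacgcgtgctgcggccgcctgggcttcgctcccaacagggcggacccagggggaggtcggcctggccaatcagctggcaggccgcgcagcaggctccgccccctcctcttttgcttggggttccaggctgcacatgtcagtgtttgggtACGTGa
The *Hilpda* window held 1 match, another window of that gene held none, and that of *Ankrd37* held 2. The motif was in 16.6% of all windows and in 24 of 48 windows of hypoxia genes (32 genes with a window), which also include the genes that rose.

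Genes of the ATF4 stress response were higher in 15 and lower in 3 of 30 (median 0.99), beside 35.6% and 14.0% of all genes tested. *Atf3*, a stress-induced factor, was at 0 and then at 8.27, 8.90, 9.08 and 9.09 RPKM, at least 517-fold higher, and *Nars*, an aminoacyl-tRNA synthetase, at means of 35.6 and 93.7 RPKM. *Chac1*, a glutathione-degrading enzyme and a close target of ATF4, went the other way, from 6.81, 6.27, 6.37 and 6.43 RPKM to 0, as did *Trib3*, from a mean of 0.438 RPKM to 0 (a call lost with 1 RPKM added before the log). *Nupr1*, a stress protein of the chromatin, fell from 282 to 93.9 RPKM. Immediate early genes were likewise split, 11 higher and 6 lower of 24, beside the same shares of all genes tested. *Dusp1*, a phosphatase, was at 1.45 and 7.89 RPKM and *Egr1*, a factor induced by activity, at 2.17 and 0.0926 RPKM.

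Heat shock genes were mostly not called, 14 of 18, beside 7476 of all 14843 genes tested. *Hsp90ab1* was at 545 and 565 RPKM and *Hspa8*, with 41.1% of its windows shared, at 323 and 408 RPKM. The small heat shock gene *Hspb8* was the largest rise, from 0 to 7.17 to 8.65 RPKM. Cell cycle genes were higher in 3 and lower in 3 of 12, beside 35.6% and 14.0% of all genes tested. The proliferation marker *Mki67* was at 0 and 0.00124 RPKM. Of 16 genes of senescence and the p53 pathway 5 were higher, beside 35.6% of all genes tested, and 0 lower (median 0.28, and −0.05 with median ratio scaling). *Cdkn2d*, an inhibitor of cell cycle kinases, lay at the fold threshold and was called lower in 5 of 12 leave-one-out settings. *Cdkn2a*, the gene of the senescence marker p16, was at 0 in the 8 libraries, *Cdkn1a* (p21) was at 10.7 and 8.24 RPKM and *Trp53* rose from 2.68 to 8.56 RPKM.

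Histone genes had 14 lower and 8 higher members of 25 tested (median −1.34), beside 14.0% and 35.6% of all genes tested. Their share of higher members was thus near that of all genes. *Hist1h2bc* was at 131.8 to 139.5 and 49.9 to 51.7 RPKM, while *Hist1h4i* was at 0 and then at 5.29 to 6.67 RPKM, and 27.3% and 22.2% of their windows occur in other transcripts, as is usual for this multigene family. Ribosomal protein genes moved little, 77 of 78 without a call (median −0.23), beside 7476 of all 14843 genes tested. The exception, *Rps12*, varied within labels, at 54, 15.6, 41.2 and 11.7 RPKM against 1.31, 2.87, 4.2 and 0 RPKM. Its libraries 1 and 2 stood apart, unlike such pairs for other genes, and 17.4% of its windows occur in other transcripts. None of the 13 mitochondrially encoded genes tested was called (median −0.33), with *mt-Co3* at 16520 to 17350 and 10960 to 11490 RPKM. All of the 75-base windows of *mt-Co3* and *mt-Atp6* occur in other transcripts, so their reads are uncertain. Nuclear genes of oxidative phosphorylation were not called in 83 of 93, with 10 higher and 0 lower (median 0.02, and −0.006 and −0.013 without averaged replicate 2 of the 26m and of the 9m OHC label). Of 9 nuclear long noncoding RNAs 6 were higher (median 1.70), beside 35.6% of all genes tested. *Meg3*, an imprinted RNA of neurons, was at 4.95 to 5.06 and 57.8 to 60.4 RPKM, and *Malat1*, the most abundant, at 7265 and 6851 RPKM.

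The direction also varied with gene length and level. Among protein-coding genes in 5 equal classes of exon length, 29.0% were higher and 18.7% lower in the shortest class (126 to 2475 bases, median log2 fold change 0.03), and 37.7% were higher and 7.39% lower in the longest (from 7688 bases, median 0.62). In 5 classes of mean level, 54.5% were higher and 23.4% lower in the lowest, and 13.4% were higher and 8.29% lower in the highest, where the median was −0.005. The lists hold genes of differing length, and the part of length in their counts was not tested.

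**Figure D5:**
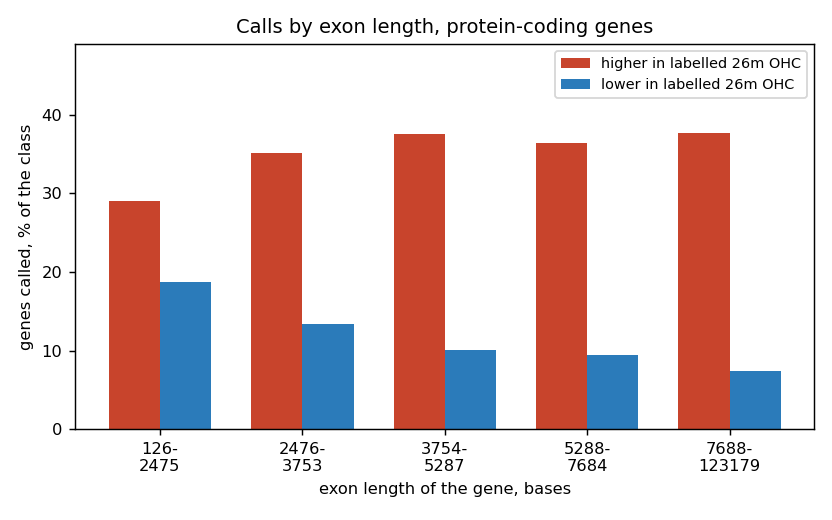
Percent of protein-coding genes called higher (red) and lower (blue) in the libraries labelled 26m OHC, in 5 equal classes of exon length in bases. The blue bars fall from 18.7% in the shortest class to 7.39% in the longest, and the red bars are lowest, at 29.0%, in the shortest.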

How the data were processed

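The authors mapped reads to mouse genome GRCm38 (mm10) with CLC Genomics Workbench and deposited RPKM per gene for 49585 genes in 16 libraries (SMARTer amplified cDNA, Nextera libraries, HiSeq 2500). The counting and strand rules were not given in the sources used here. Within a gene, 74.81% of the 20986 genes detected had RPKM values equal to whole reads within 0.001 of a read, and in a library of median depth 0.1 RPKM was 2.05 reads for a gene of 1 kb. Counting intervals cover counting error only.

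For these cells the study describes 2 biological replicates, each run in 2 technical repeats, and elsewhere 3, whereas by the labels every library is a biological replicate. Libraries 1 and 2, and 3 and 4, of a label differed by a mean chi-square per gene of 1.05 to 1.08, against 2.70 to 3.28 for other pairs, so each pair was averaged. Genes whose mean reached 0.1 RPKM at either label were compared on log2(RPKM + 0.1) with limma 3.58.1 (trend, two-sided, Benjamini-Hochberg over all genes tested) in R 4.3.3, with thresholds for a call of 0.1 on the adjusted p and 1 on the absolute log2 fold change. Alternatives were another amount added before the log, filter, scaling, threshold and fit, and leaving out each library or averaged replicate. Deviations from the label means of same-numbered libraries correlated across 2760 genes (0.108 to 0.235, and 0.413 for averaged replicates). By the rule set for this check the numbers counted as paired, and a replicate block was fitted. Libraries of different number were not compared, so the values cannot show which libraries match within a pair.

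The rule for named genes took 5 given markers, the 15 largest rises and falls among called protein-coding genes of at least 1 RPKM without overlap of libraries, up to 4 members per list, the 8 largest rises and falls in RPKM, and up to 6 genes at 0 at 1 label. Further list members are named as examples, chosen after their values were seen, and a few members are not reported here. Members, lists and tests were chosen with earlier results of these data known. Shared sequence is the percent of 75-base windows, taken every 25 bases of a gene's longest transcript, found on either strand in a transcript of another gene. Of 138 named genes with a transcript, 10 shared 50% or more. The share is given for some genes only.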

Additional observations from a re-analysis of the deposited data

Results flagged for a closer look

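Some signals lay in libraries outside the comparison. In the libraries labelled 26m IHC, *Slc26a5* was at a mean of 816.3 RPKM and *Ocm* at 12920 RPKM, above every library labelled OHC. Y-linked RNA was also read there, with *Ddx3y* at a mean of 16.27 RPKM and *Eif2s3y* at 19.38 RPKM, and at 2.29 and 3.32 RPKM in the libraries labelled 9m IHC, while no library labelled OHC exceeded 0.0350 RPKM for these genes although mice of both sexes were pooled. A cause was not tested for either pattern.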

How the results depend on the processing

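Across 26 settings, 182 named genes gave 4597 values of the same direction and call, 75 that lost the call, 27 that gained it and 18 that changed sign. The counts of 5288 higher and 2079 lower genes became 3141 and 1056 with 1 RPKM added before the log, 3350 and 3407 with quantile normalization, and 2816 and 934 at a log2 fold change of 2. With a filter of 1 RPKM, 1384 genes were lower. Genes at 0 numbered 95 (9m OHC label) and 23 (26m OHC label) where 5 RPKM was asked of the other label. With the replicate block, the counts were 5293 and 2089, and with the block on 4 separate libraries 5283 and 2082. Leaving out a library or averaged replicate gave 5267 to 5312 higher and 2039 to 2096 lower genes, 657 to 701 and 235 to 251 genes at 0, and 12557 to 12571 and 13823 to 13836 genes above 0.1 RPKM at the 9m and 26m OHC labels. Signs changed with median ratio scaling for *Calb2* (−0.011), *Cdkn1b* (−0.26), *Hsp90ab1* (−0.28), *Myo7a* (−0.12) and *Sox10* (−0.30), with quantile normalization for *Cd74* (0.0076), *Cd9* (0.19), *Cdkn1b* (−0.058), *Chrna9* (−0.076), *Malat1* (0.48), *Myo7a* (−0.15), *Sox10* (−0.11) and the stria vascularis median (−0.10), and without mitochondrially encoded genes in the scaling for *Cd74* (0.050), *Cd9* (0.14), *Malat1* (0.062), *Pcna* (0.00078) and *Xist* (0.015). With a filter of 1 RPKM the lymphocyte median became 0.016. The granulocyte median became −4.13, with 0 members higher and 1 lower, where the main fit had 2 and 1 of 3. A cause of the other sign changes was not tested. *Cd9* ranged from −0.0225 to 0.00045 in leave-one-out settings. Calls of *Cfp*, *Cib2*, *Cdh5* and *Otos*, an inner ear protein not described above, were lost and that of *Cdkn2d* was gained in leave-one-out settings. Median ratio scaling added calls of *Pou4f3* (−1.14) and *Skp1a* (−1.29), and quantile normalization those of *Fth1* (1.17), *Actb* (1.40) and *Celf4* (−1.18). Without mitochondrially encoded genes in the scaling *Ikzf2* was called (1.04). Depth limits genes near 0.1 RPKM, which rest on few reads.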
